A study of Mus musculus with 12 samples.

Results

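The interaction of rhPBEF and ventilation in the mouse lung asks whether both treatments together gave a different level from the one that each treatment alone would predict. It was taken from all 12 of the 12 lung arrays of the series, as (rhPBEF & VALI minus VALI) minus (rhPBEF minus Control), and computed for every gene on the arrays. The arrays formed 4 groups of 3, assigned by the sample titles. The rhPBEF & VALI mice received recombinant human PBEF (rhPBEF) by the intratracheal route, at 20 µg a mouse in a volume of water of 1.5 µl for each g of weight, and ventilation for 4 hours with a tidal volume of 30 ml per kg. The VALI mice received that ventilation alone, the rhPBEF mice that instillation alone, and the Control mice phosphate-buffered saline. All mice were 8 to 12 weeks old, and neither strain nor sex is stated in the labels read here. When the lungs were taken after instillation is likewise not stated, nor is an instillation of saline before ventilation. The series has no group ventilated at a low tidal volume, so ventilation as such and a large breath cannot be told apart. A sample description that names each lung a control was disregarded. Since the labels do not say that the arrays of a group came from separate mice, p-values measure only the spread between these arrays, which may be technical.

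PBEF, the secreted form of nicotinamide phosphoribosyltransferase, is encoded in the mouse by Nampt and is known both as an enzyme of NAD synthesis and as an inflammatory protein outside the cell. Over-stretching of the lung by a ventilator and inflammatory proteins in the airway are both known to act through NF-kB, which switches on genes for cytokines and for the chemokines that draw neutrophils from the blood. Il6 then acts through STAT3 on acute phase genes and on Socs3, the inhibitor that limits it.

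Values are log2 levels as deposited, and on this scale an interaction of 0 means that the fold changes of the 2 treatments multiplied. The interaction is called here the departure from the product: a negative departure is a level after both treatments below the product of the separate folds, and a positive one is a level above it. Of 18193 genes, 0 (0%) departed from the product at a limma adjusted p of 0.05, and the smallest adjusted p was 0.998. At an unadjusted p under 0.05 there were 449 genes (2.47%), 266 above the product (1.46%) and 183 below it (1.01%). The median departure of all genes was 0.03. With every array centred on its own median it was 0.01, and the split was then 159 above and 256 below, with 58.2% of all genes at a positive sign in the uncentred fit. By the same fit 565 genes (3.11%) passed for rhPBEF averaged over ventilation and 40 genes (0.22%) for ventilation averaged over rhPBEF. The standard error of a departure had a median of 0.15 over all genes, with 8 residual degrees of freedom.

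More of the large departures were negative than positive. There were 85 genes at -1 or less (0.467% of genes) and 8 at 1 or more (0.044%). The 8 high ones were Adipoq, Car3, Cyp2e1, Hmox1, Hspa1b, Pck1, Ptx3 and Thrsp. Of the 85 low ones, 37 belong to a gene list of this report, and of all 18193 genes 687 do. The lists were written with earlier results of these data known, so this overlap is descriptive only. The highest of the 12 values was that of rhPBEF replicate 2 for 32 of the 85, of rhPBEF & VALI replicate 1 for 27 and of VALI replicate 2 for 17. Without rhPBEF replicate 2 the count at -1 or less was 55, of which 47 were among the 85, and without VALI replicate 3 it was 138, of which 77 were. The count at 1 or more was 24 without VALI replicate 2, 20 without VALI replicate 3, 17 without rhPBEF & VALI replicate 3, 13 without rhPBEF replicate 2 or Control replicate 3, and 5 without Control replicate 1. With array weights it was 25, beside 100 at -1 or less. Without rhPBEF replicate 2 and VALI replicate 3 together it was 39, beside 110 at -1 or less.

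**Figure D1:**
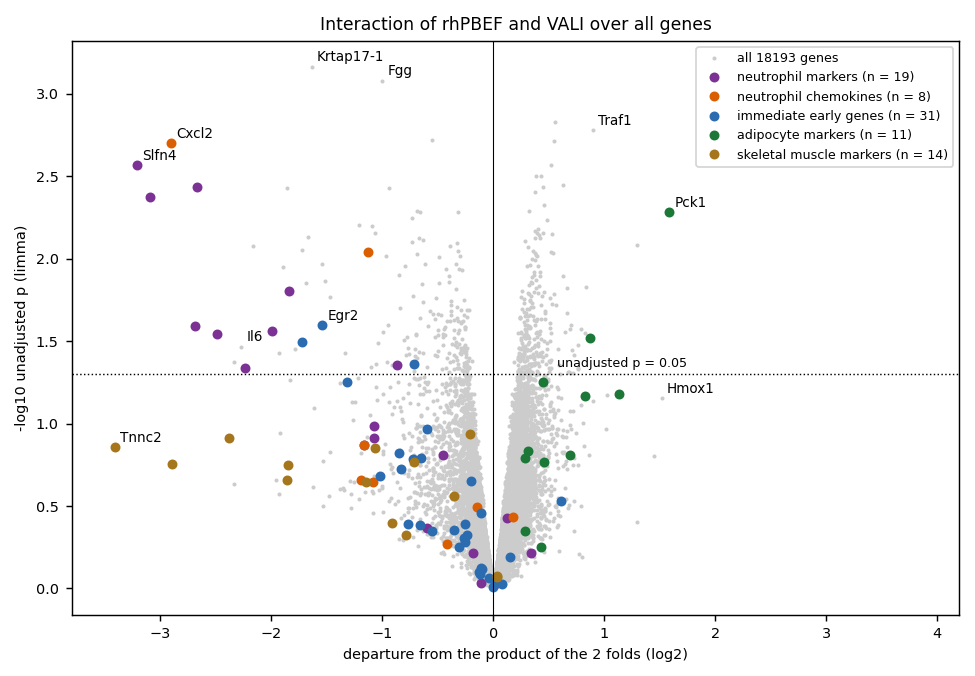
Departure from the product (log2, horizontal axis) against -log10 of the unadjusted limma p (vertical axis) for 18193 genes, 1 point a gene, with the members of 5 lists in colour. Cxcl2, Slfn4 and other neutrophil genes lie far to the left, Pck1 lies to the right, and no gene passed an adjusted p of 0.05.

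Gene lists were written from textbook knowledge with earlier results of these data known, so their counts are descriptive only. They held 736 genes in 38 lists, and 687 were measured by a probe set with a single symbol. Member by member, the largest negative list medians were those of the neutrophil chemokines (-1.11), the neutrophil markers (-1.08) and the skeletal muscle markers (-0.99). The largest positive ones were those of the adipocyte (0.46), cardiac muscle (0.44) and smooth muscle markers (0.34). Without VALI replicate 1, on which both muscle lists were low, these were -0.10 for cardiac muscle, with 6 of 16 positive, and 0.07 for smooth muscle, with 8 of 14 positive. Without Control replicate 1 the cardiac median was 0.17. All are read against the median of 0.03 over all genes. With 1 array left out, 0.594% to 1.95% of all genes were below the product at an unadjusted p under 0.05 and 0.912% to 2.61% above it. The tissue is bulk lung, where fewer cells of a type and less RNA per cell cannot be told apart. Lung identity was clear on every array, with Sftpc between 14.76 and 14.97, Scgb1a1 between 14.82 and 15.02 and Ager between 14.27 and 14.55.

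**Figure D2:**
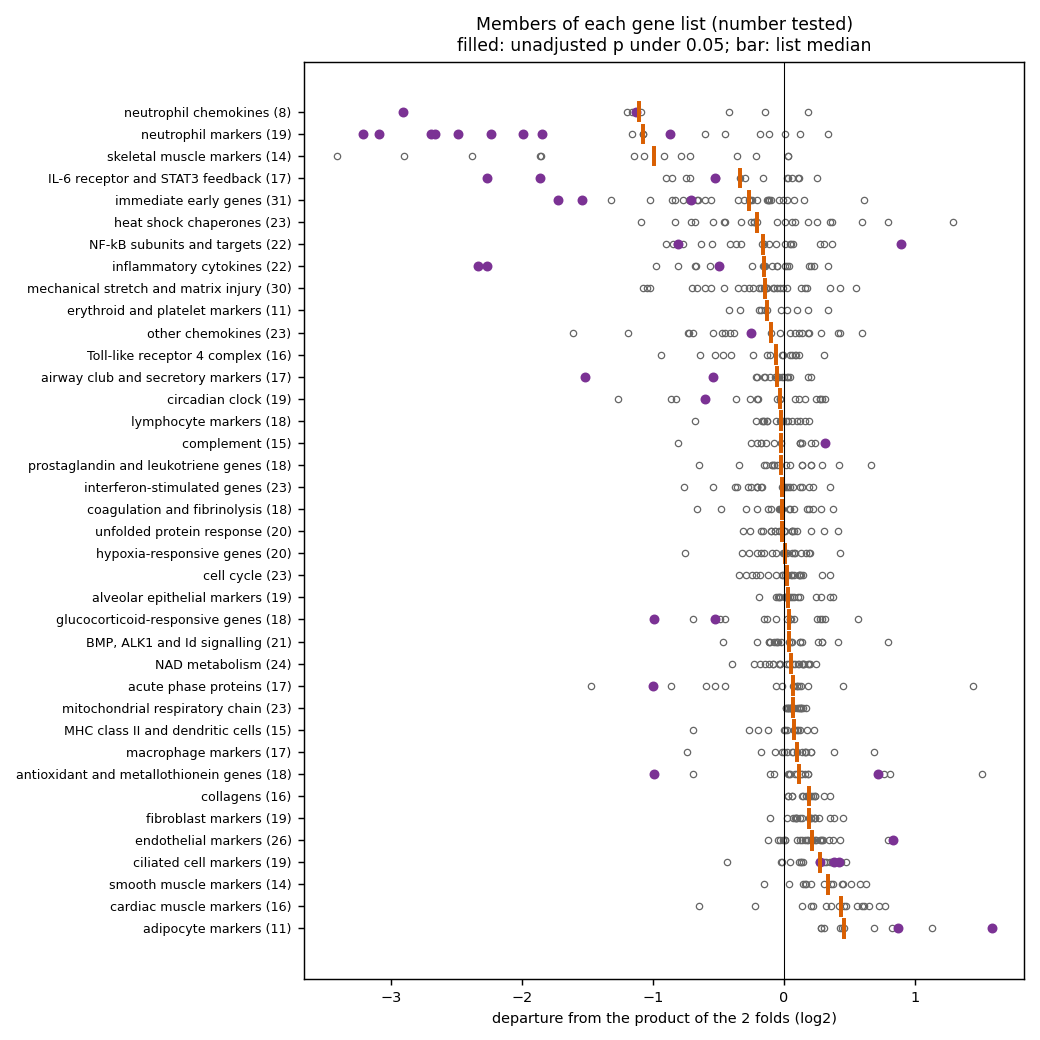
Departure from the product (log2, horizontal axis) of each measured member of 38 gene lists, 1 circle a gene, with the list median as a vertical bar and members at an unadjusted limma p under 0.05 filled. The neutrophil chemokines and markers spread to -3.21, and all 11 adipocyte markers lie above 0.

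Cxcl3, Cxcl2 and Cxcl5, neutrophil chemokines, had the largest average effects of rhPBEF. Averaged over ventilation, these and Cxcl1 rose with rhPBEF by 3.70 to 6.18 on the log2 scale (largest limma adjusted p = 0.000381), while the other 4 members of the list, Cxcr2, Cxcl15, Ppbp and Pf4, did not pass. Promoters are shown for the 3 of them that hold the NF-kB type letters described next. The 250 bases before the start site were taken from RefSeq (GRCm38.p6), all on the plus strand, at chr5:90890995-90891244 for Cxcl1, chr5:90903649-90903898 for Cxcl2 and chr5:90785851-90786100 for Cxcl3. Capitals mark GGG and TTCC with 3 bases between them, the letters of an NF-kB type site, on either strand, and matches on opposite strands overlap.
Cxcl1: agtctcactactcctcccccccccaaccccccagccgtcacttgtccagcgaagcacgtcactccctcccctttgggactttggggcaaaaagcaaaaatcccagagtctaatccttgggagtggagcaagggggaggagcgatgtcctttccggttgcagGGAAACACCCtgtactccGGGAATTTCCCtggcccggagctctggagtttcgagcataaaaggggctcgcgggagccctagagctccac
Cxcl2: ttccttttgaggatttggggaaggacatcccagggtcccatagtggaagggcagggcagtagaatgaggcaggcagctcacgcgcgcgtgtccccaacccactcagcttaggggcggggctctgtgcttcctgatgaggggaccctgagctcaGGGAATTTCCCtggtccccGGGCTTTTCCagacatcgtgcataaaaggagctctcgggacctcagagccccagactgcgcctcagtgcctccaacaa
Cxcl3: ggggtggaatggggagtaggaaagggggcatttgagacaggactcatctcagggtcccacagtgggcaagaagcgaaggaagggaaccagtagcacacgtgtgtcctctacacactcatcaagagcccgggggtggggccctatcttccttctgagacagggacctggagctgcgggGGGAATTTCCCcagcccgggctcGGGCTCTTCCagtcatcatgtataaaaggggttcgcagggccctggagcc
In Cxcl2 the plus-strand matches run from -97 to -88 and from -78 to -69, counted from the start site. Of the 7 list members with a promoter in the table, 3 hold the letters, and 1244 of 27025 promoters of that length (4.6%) do. A match describes letters, not binding.

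Cxcl2, a ligand of the neutrophil receptor Cxcr2, stood at 13.18, 12.66 and 12.13 in the rhPBEF & VALI lungs, 8.06, 9.53 and 6.80 in the VALI lungs, 12.82, 12.69 and 12.90 in the rhPBEF lungs and 5.48, 5.33 and 5.31 in the Control lungs, replicates in the order 1 to 3. Levels after both treatments overlapped those after rhPBEF alone, VALI levels lay between these and the Control levels, and no VALI array overlapped a Control array. Had the folds multiplied, the level would have been 15.56, whereas the highest value anywhere in the table is 15.02. The departure was -2.91 ± 0.72 (SE), 95% confidence interval -4.50 to -1.31, with an unadjusted limma p of 0.00199. Put as folds over Control, Cxcl2 was 156-fold after both treatments, 6.76-fold after ventilation and 173-fold after rhPBEF. Cxcl1, its close relative, stood at 12.83, 12.14 and 11.78 in the rhPBEF & VALI lungs, 9.07, 9.57 and 8.69 in the VALI lungs, 12.01, 12.19 and 12.35 in the rhPBEF lungs and 7.96, 7.86 and 7.94 in the Control lungs. Here too the rhPBEF & VALI arrays overlapped the rhPBEF arrays, and the VALI arrays lay between these and the Control arrays. Its departure was -1.13 ± 0.36 (SE) with an unadjusted p of 0.00916, and its 3 probe sets ran from -2.65 to -0.17. In a limma fit of all probe sets the one at -2.65 had an unadjusted p of 0.000141 and the one at -0.17 had 0.581.

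Cxcl3 and Cxcl5, also ligands of Cxcr2, had departures of -1.20 ± 0.92 (SE) and -1.09 ± 0.85 (SE), with intervals that held 0, and Cxcl5 had -0.61 without Control replicate 1 and -1.83 without VALI replicate 3. Replicate 3 of the rhPBEF & VALI lungs carried the lowest Cxcl3 level of that group, 8.30, against 11.25 and 11.02. Without that array the Cxcl3 departure was -0.25. Cxcr2 itself, the receptor on neutrophils, had -1.16 ± 0.72 (SE), -0.74 without rhPBEF & VALI replicate 3 and -1.78 without VALI replicate 3. Of the 8 measured members of the list, 2 were below the product at an unadjusted p under 0.05 (1.01% of all genes were) and 0 above it, and 2 to 4 were below when each array was left out in turn. The others were Cxcl15, a lung epithelial chemokine, at -0.14 ± 0.14 (SE), and the platelet chemokines Ppbp and Pf4 at -0.42 ± 0.66 (SE) and 0.18 ± 0.19 (SE). With values under 5.03, the 20th percentile of the table, raised to it, the list median was -0.61. Control levels of Cxcl3 were 3.41, 3.78 and 3.61, under that level on all 3 arrays, and no detection call was used.

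Of the 23 other chemokines, 1 was below the product at an unadjusted p under 0.05 (1.01% of all genes were), Xcl1, and 0 above. The median departure was -0.09. Ccl3 and Ccl12, which attract monocytes, had departures of -1.61 ± 0.84 (SE) and -1.19 ± 0.77 (SE), and Ccl2 had -0.73 ± 0.78 (SE). Without rhPBEF & VALI replicate 3 these were -0.86, -0.44 and -0.15. Cxcl10, an interferon-induced lymphocyte chemokine, had -0.72 ± 1.0 (SE), and 0.10 without that array. Ccl20, an epithelial chemokine whose receptor is Ccr6, had a positive departure and stood at 11.83, 11.49 and 11.07 in the rhPBEF & VALI lungs, 7.28, 7.43 and 6.74 in the VALI lungs, 10.71, 10.57 and 12.22 in the rhPBEF lungs and 7.49, 7.22 and 7.14 in the Control lungs. The VALI arrays overlapped the Control arrays, and both groups given rhPBEF lay far above. Its departure was 0.43 ± 0.53 (SE), 95% confidence interval -0.74 to 1.60, and 0.13 without rhPBEF replicate 2. The list median was 0.14 without rhPBEF & VALI replicate 3.

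**Figure D3:**
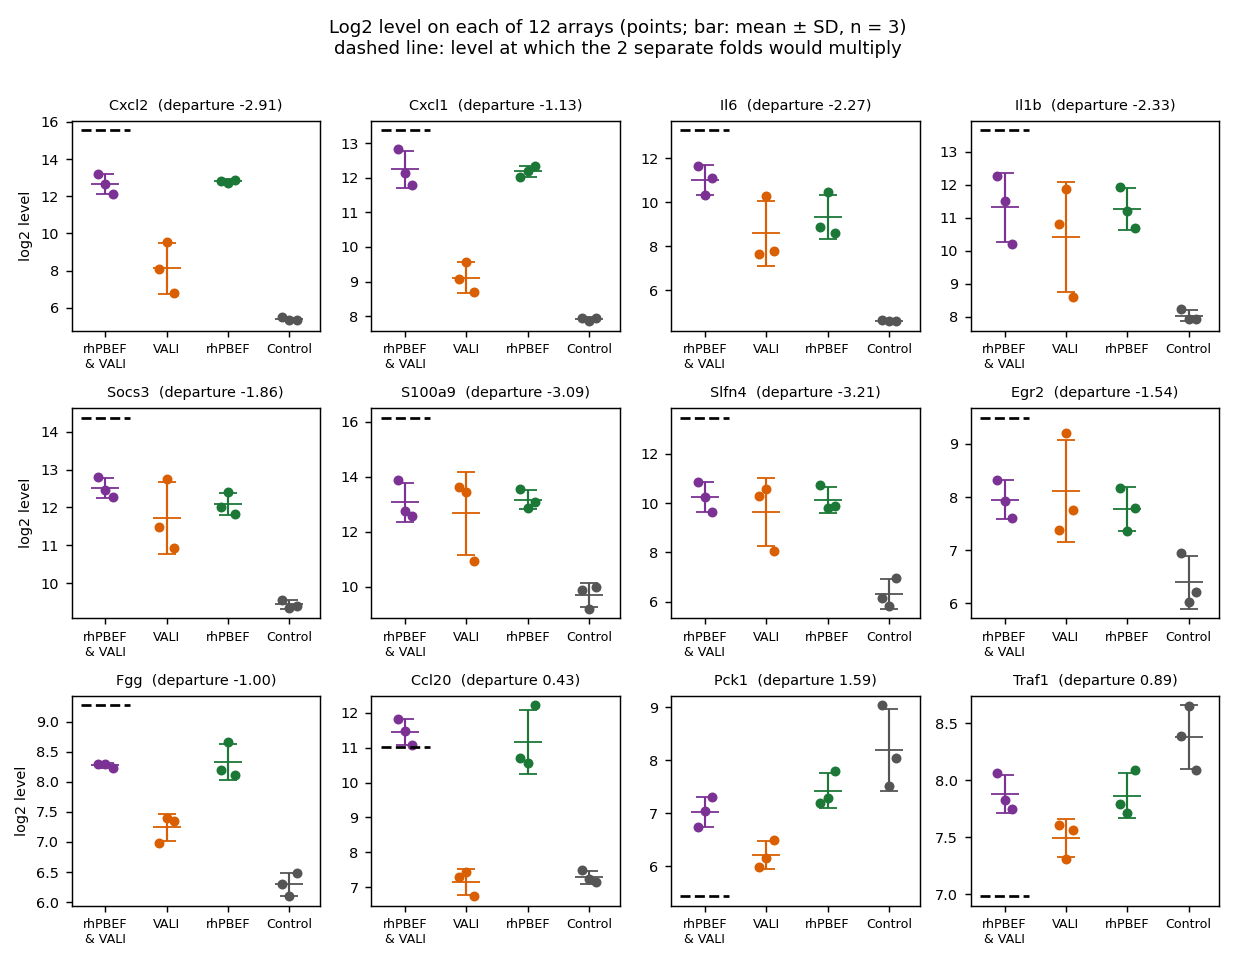
Log2 level of 12 genes on each array (points), by group, with the mean and SD of 3 arrays as bars and, as a dashed line, the level at which the folds of the 2 treatments would multiply. For Cxcl2, Il6, Socs3, S100a9 and Slfn4 all 3 rhPBEF & VALI points lie below the dashed line, and for Pck1 and Traf1 they lie above it.

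Among 22 inflammatory cytokines 3 were below the product at an unadjusted p under 0.05 (1.01% of all genes were), Il1b, Il6 and Tnf, and 0 above it. Il6 stood at 11.66, 10.32 and 11.09 in the rhPBEF & VALI lungs, 7.65, 10.30 and 7.78 in the VALI lungs, 8.89, 10.45 and 8.61 in the rhPBEF lungs and 4.63, 4.59 and 4.61 in the Control lungs. Control values were nearly equal, and the VALI and rhPBEF lungs each held 1 array far above the other 2. Both treatments gave the highest group mean, 11.02 ± 0.67 (SD, n = 3), yet the product of the folds would be 13.29. The departure was -2.27 ± 0.94 (SE), with an unadjusted limma p of 0.0341. Without VALI replicate 2 it was -1.41. In the list 0 to 5 members were below the product at an unadjusted p under 0.05 when each array was left out in turn. The count was 5 without rhPBEF & VALI replicate 1. It was 0 without Control replicate 1, 2 or 3, VALI replicate 2 or rhPBEF & VALI replicate 3. With values under 5.03 raised to that level it was also 0.

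Il1b, a cytokine of activated myeloid cells, stood at 12.26, 11.50 and 10.20 in the rhPBEF & VALI lungs, 10.81, 11.85 and 8.58 in the VALI lungs, 11.93, 11.21 and 10.67 in the rhPBEF lungs and 8.23, 7.94 and 7.94 in the Control lungs. The 3 groups with any treatment overlapped. The departure was -2.33 ± 1.02 (SE), unadjusted p = 0.0426 in limma. For Tnf the corresponding values were -0.50 ± 0.21 (SE) and 0.0363, and ventilation alone left it at 7.08 ± 0.04 (SD, n = 3) against 6.93 ± 0.07 (SD, n = 3) in Control lungs. Osm, an Il6 relative, had -0.98 ± 0.60 (SE), and -0.39 without VALI replicate 2, and Csf3, the granulocyte growth factor, had -0.05 ± 0.68 (SE), close to the product.

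Socs3, the feedback inhibitor downstream of Il6 and STAT3, has a STAT type site (TTCNNNGAA, both strands, in capitals) in the 250 bases before its start, at chr11:117969367-117969616 on the minus strand, and the promoter of Il6, at chr5:30012864-30013113 on the plus strand, has the NF-kB type letters. The STAT type letters are in 1940 of 27025 promoters (7.18%). Of the 16 members of the Il6 receptor and STAT3 feedback list with a promoter in the table, 1 holds them, Socs3.
Il6: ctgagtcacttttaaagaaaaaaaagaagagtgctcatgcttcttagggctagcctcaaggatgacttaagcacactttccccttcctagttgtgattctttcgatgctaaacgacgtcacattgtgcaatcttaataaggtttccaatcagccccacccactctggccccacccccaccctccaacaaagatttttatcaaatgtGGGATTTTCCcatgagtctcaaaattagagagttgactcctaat
Socs3: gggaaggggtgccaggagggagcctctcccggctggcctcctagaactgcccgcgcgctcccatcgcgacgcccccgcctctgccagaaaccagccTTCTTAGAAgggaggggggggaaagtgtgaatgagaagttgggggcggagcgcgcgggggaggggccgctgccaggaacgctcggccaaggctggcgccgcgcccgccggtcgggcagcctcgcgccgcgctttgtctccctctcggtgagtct
Socs3 stood at 12.80, 12.45 and 12.28 in the rhPBEF & VALI lungs, 11.47, 12.76 and 10.93 in the VALI lungs, 12.02, 12.42 and 11.84 in the rhPBEF lungs and 9.57, 9.35 and 9.41 in the Control lungs. VALI replicate 2 reached the level of the rhPBEF & VALI lungs and the other VALI arrays lay below them. The departure was -1.86 ± 0.51 (SE), 95% confidence interval -2.98 to -0.74, unadjusted p = 0.0037 in limma, and its 3 probe sets ran from -1.95 to -1.55. In the list of the Il6 receptor and STAT3 feedback, 3 of 17 genes were below the product at an unadjusted p under 0.05 (1.01% of all genes were) and 0 above. They were Il6, Socs3 and Cebpd, a transcription factor gene induced by STAT3. The count was 1 without VALI replicate 2, rhPBEF replicate 2, rhPBEF & VALI replicate 3 or Control replicates 2 or 3, 5 without VALI replicate 3 and 6 without rhPBEF & VALI replicate 1. Junb, Pim1 and Osmr, known targets of the pathway, had departures of -0.85 ± 0.55 (SE), -0.75 ± 0.38 (SE) and -0.71 ± 0.33 (SE). The receptor genes Il6ra and Il6st had 0.25 ± 0.24 (SE) and 0.12 ± 0.22 (SE).

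NF-kB subunits and targets had a median departure of -0.16, with 1 of 22 below the product at an unadjusted p under 0.05, Tnfaip2, and 1 above, Traf1. Of all genes 1.01% were below and 1.46% above at that level. Bcl3, a nuclear regulator of NF-kB, had -0.90 ± 0.46 (SE), and -0.49 without rhPBEF & VALI replicate 3. Tnfaip3, the inhibitor A20, had -0.55 ± 0.42 (SE), and Nfkbia, the first inhibitor of the pathway, had 0.05 ± 0.20 (SE). Sele and Selp, the endothelial selectins, had -0.85 ± 1.23 (SE) and -0.81 ± 1.19 (SE), and Sele turned to 0.37 without VALI replicate 2, the array with the highest Sele level, 8.92. Without rhPBEF & VALI replicate 3 the list median was 0.07. Averaged over ventilation, Tnfaip3 rose with rhPBEF by 2.10 on the log2 scale (limma adjusted p = 0.000513) and Bcl3 by 1.64 (adjusted p = 0.00421).

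Traf1, an adaptor of TNF receptors and itself an NF-kB target, stood at 8.06, 7.83 and 7.75 in the rhPBEF & VALI lungs, 7.61, 7.31 and 7.57 in the VALI lungs, 7.79, 7.72 and 8.09 in the rhPBEF lungs and 8.39, 8.65 and 8.09 in the Control lungs. Both single treatments gave a lower mean than Control, and the rhPBEF & VALI arrays overlapped the rhPBEF arrays and lay above the VALI arrays. Its departure was 0.89 ± 0.22 (SE), 95% confidence interval 0.42 to 1.37, with an unadjusted limma p of 0.00166, and both probe sets were positive (0.70 and 0.89).

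Neutrophil markers held the most low departures: 9 of 19 measured members were below the product at an unadjusted p under 0.05, against 1.01% of all genes, and 0 were above it. S100a9, a subunit of the calprotectin that fills neutrophil cytosol, stood at 13.87, 12.76 and 12.55 in the rhPBEF & VALI lungs, 13.63, 13.44 and 10.93 in the VALI lungs, 13.56, 12.87 and 13.07 in the rhPBEF lungs and 9.88, 9.20 and 9.98 in the Control lungs. Every treated array but VALI replicate 3 lay at 12.55 or above, and all Control arrays lay below those. The product of the folds would be 16.15, above the top of the table, and the departure was -3.09 ± 0.86 (SE), 95% confidence interval -4.98 to -1.20, unadjusted p = 0.0042 in limma. S100a8, its partner, had -2.67 ± 0.73 (SE), and its product of folds, 16.09, was also above the table's highest value. Only Cxcl2, S100a8 and S100a9 of all 18193 genes had such a product.

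Slfn4, a myeloid interferon-inducible gene, stood at 10.86, 10.25 and 9.62 in the rhPBEF & VALI lungs, 10.29, 10.57 and 8.06 in the VALI lungs, 10.74, 9.80 and 9.87 in the rhPBEF lungs and 6.14, 5.84 and 6.98 in the Control lungs. Control arrays were the lowest, and VALI replicate 3 was the lowest of the treated ones. Its departure of -3.21 ± 0.84 (SE) had an unadjusted limma p of 0.00271. The other 6 at an unadjusted p under 0.05 were Mmp8, the neutrophil collagenase, at -2.69 ± 1.05 (SE); Clec4d and Clec4e, C-type lectin receptors of myeloid cells, at -2.49 ± 0.99 (SE) and -2.23 ± 0.99 (SE); the decoy receptor Il1r2 at -1.99 ± 0.78 (SE); the granulocyte growth factor receptor Csf3r at -1.84 ± 0.65 (SE); and Il1f9 at -0.87 ± 0.38 (SE). Lcn2, which epithelium also makes, had -0.45 ± 0.29 (SE). The granule genes Elane and Mpo, expressed in neutrophil precursors, stayed near the product at 0.12 ± 0.13 (SE) and 0.01 ± 0.13 (SE).

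VALI replicate 3 stood apart in this list. Over the 19 markers the rhPBEF & VALI arrays averaged 2.89, 1.94 and 1.45 above the Control mean, the VALI arrays 2.13, 2.0 and 0.59 and the rhPBEF arrays 2.04, 1.80 and 1.73. VALI replicates 1 and 2 thus lay at the level of the rhPBEF lungs, and rhPBEF & VALI replicate 1 was the highest array. Without VALI replicate 3 the list median was -1.70, and 12 of 19 members were below the product at an unadjusted p under 0.05, against 1.95% of all genes. In that fit 4 genes of 18193 passed a limma adjusted p of 0.05: S100a9 (-3.96, adjusted p = 0.047), Csf3r, Cd300ld and H2-Q10. The count of low members was 4 without VALI replicate 1, rhPBEF & VALI replicate 3 or Control replicate 2, 5 without VALI replicate 2 or rhPBEF replicate 1, and 14 without rhPBEF & VALI replicate 1 (1.63% of all genes then were). It was 4 with values under 5.03 raised to that level. The part of neutrophil number in these departures was not tested.

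**Figure D4:**
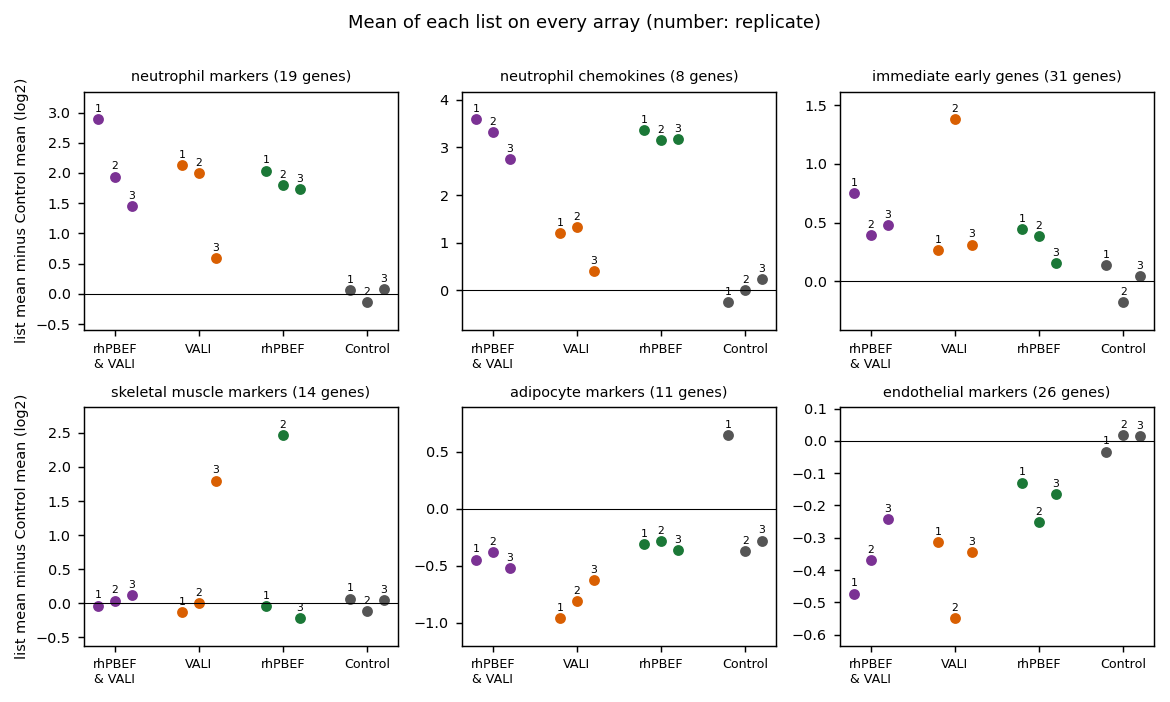
Mean over the members of 6 lists on each array, as a difference from the Control mean (log2, vertical axis), with groups along the horizontal axis and the replicate number at each point. VALI replicate 3 is low for neutrophil markers, VALI replicate 2 is high for immediate early genes, rhPBEF replicate 2 and VALI replicate 3 are high for skeletal muscle genes, and Control replicate 1 is high for adipocyte genes.

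Immediate early genes, the transcription factors that stretch and growth signals switch on, had a median departure of -0.27. Of the 31, 27 were negative, against 41.8% of all genes. Below the product at an unadjusted p under 0.05 were Fosb, Egr2 and Zfp36, which encodes an RNA-decay factor for cytokine messages, and 0 of 31 were above. The share of all genes below at that level was 1.01%. Egr2 stood at 8.32, 7.93 and 7.60 in the rhPBEF & VALI lungs, 7.38, 9.20 and 7.76 in the VALI lungs, 8.17, 7.36 and 7.79 in the rhPBEF lungs and 6.96, 6.03 and 6.21 in the Control lungs. The treated groups overlapped, and the highest level was that of VALI replicate 2. Its departure was -1.54 ± 0.60 (SE), unadjusted p = 0.0253 in limma, and Fosb and Fos had -1.72 ± 0.70 (SE) and -1.32 ± 0.62 (SE). On the mean of the list VALI replicate 2 was 1.38 above Control, while the other VALI arrays were at 0.26 and 0.31. Without that array Egr2 had -1.0, Fosb -1.02 and Fos -0.71, and the median was -0.06, with 17 of 31 negative and 2 at an unadjusted p under 0.05. The count of low members ran from 0 without rhPBEF replicate 1 or Control replicate 2 to 6 without VALI replicate 1.

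Heat shock chaperones averaged 1.73 above Control on that array, against -0.14 and -0.78 on the other VALI arrays. Bag3, a co-chaperone, stood at 10.75, 10.61 and 10.77 in the rhPBEF & VALI lungs, 10.59, 13.78 and 10.76 in the VALI lungs, 10.57, 10.73 and 10.32 in the rhPBEF lungs and 10.79, 10.56 and 10.79 in the Control lungs. VALI replicate 2 was at 13.78 and the 11 other arrays at 10.32 to 10.79, and the departure of -0.83 ± 0.89 (SE) became 0.21 without it. Hspa1l had -1.09 ± 1.11 (SE) and likewise turned to 0.21. Hspa1b, the inducible chaperone, had 1.30 ± 1.47 (SE), one of the 8 departures at 1 or more, with levels of 12.99, 12.99 and 9.61 in the rhPBEF & VALI lungs and 12.69, 9.29 and 10.59 in the rhPBEF lungs. It had 0.49 without VALI replicate 3 and 2.42 without rhPBEF & VALI replicate 3. Of the 23 members 0 were at an unadjusted p under 0.05 in either direction. Without VALI replicate 2 the list median was 0.44 in place of -0.21. Above the product at that level were then 10 members, against 1.32% of all genes.

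Acute phase proteins, made chiefly by liver, had a median departure of 0.07, which turned to -0.25 without rhPBEF replicate 3. At an unadjusted p under 0.05, 1 of 17 was below the product (1.01% of all genes were) and 0 were above. That gene was Fgg, the fibrinogen gamma chain, which stood at 8.30, 8.29 and 8.23 in the rhPBEF & VALI lungs, 6.99, 7.39 and 7.35 in the VALI lungs, 8.20, 8.67 and 8.11 in the rhPBEF lungs and 6.30, 6.10 and 6.49 in the Control lungs. The rhPBEF & VALI lungs lay within the range of the rhPBEF lungs, the VALI lungs lay between these and the Control lungs, and no VALI array overlapped a Control array. The departure was -1.0 ± 0.22 (SE), 95% confidence interval -1.49 to -0.51, unadjusted p = 0.000832 in limma. Saa3, a local serum amyloid, had -1.47 ± 0.95 (SE), and -0.57 without rhPBEF & VALI replicate 3. Fga, the alpha chain, had -0.60 ± 0.51 (SE).

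Ptx3, a pattern-recognition protein released by endothelium and neutrophils, was the acute phase member furthest above the product. It stood at 10.87, 10.04 and 8.10 in the rhPBEF & VALI lungs, 6.75, 6.67 and 7.36 in the VALI lungs, 7.65, 8.71 and 6.32 in the rhPBEF lungs and 6.70, 5.88 and 6.22 in the Control lungs. Replicates 1 and 2 of the rhPBEF & VALI lungs exceeded every other array, and replicate 3 lay within the rhPBEF range. The departure was 1.45 ± 0.95 (SE), 95% confidence interval -0.65 to 3.54, with 0.83 without rhPBEF replicate 3 and 2.23 without rhPBEF & VALI replicate 3. A dimmer probe set of Ptx3 lay at 0.12. Saa1 stood at 10.40, 10.16 and 6.37 in the rhPBEF & VALI lungs, 5.65, 5.46 and 5.69 in the VALI lungs, 8.91, 9.27 and 6.31 in the rhPBEF lungs and 5.10, 4.61 and 4.96 in the Control lungs. Replicate 3 was far below the other 2 in both groups given rhPBEF. Its departure, 0.10 ± 1.37 (SE), was negative when any 1 of 4 arrays was left out and reached -0.83 without rhPBEF replicate 3. Slc26a4, an epithelial anion exchanger of the airway, had -1.52 ± 0.52 (SE) with an unadjusted p of 0.0137 in limma, after a 24.8-fold level with both treatments, 2.77-fold with ventilation and 25.6-fold with rhPBEF over Control.

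Antioxidant genes and metallothioneins divided. Mt2, a metal-binding stress protein, had -0.99 ± 0.39 (SE) (unadjusted p = 0.0279 in limma) and Mt1 -0.69 ± 0.39 (SE). On the positive side were targets of the oxidant sensor NRF2, Hmox1 at 1.52 ± 0.76 (SE), Srxn1 at 0.81 ± 0.45 (SE), Slc7a11 at 0.77 ± 0.53 (SE) and Gclm at 0.72 ± 0.33 (SE) (unadjusted p = 0.0491). Hmox1, which degrades heme, stood at 12.19, 12.41 and 10.87 in the rhPBEF & VALI lungs, 12.34, 12.27 and 10.11 in the VALI lungs, 11.10, 11.09 and 10.79 in the rhPBEF lungs and 12.10, 12.49 and 12.19 in the Control lungs. All rhPBEF arrays lay below the Control arrays, and in each ventilated group replicate 3 was lower than the other 2. Without VALI replicate 3 its departure was 0.79 and that of Srxn1 0.42. In the list as a whole 1 of 18 was above the product and 1 below at an unadjusted p under 0.05, against 1.46% and 1.01% of all genes. Gclm was not at that level after centring or quantile normalisation. Without rhPBEF & VALI replicate 3 the count above was 5, against 2.01% of all genes.

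Adipocyte markers were above the product in 11 of 11 genes, against 58.2% of all genes, with a median of 0.46. Of these 2 were at an unadjusted p under 0.05 (1.46% of all genes were, in that direction). Pck1, an enzyme of glyceroneogenesis in fat, stood at 6.73, 7.04 and 7.30 in the rhPBEF & VALI lungs, 5.98, 6.15 and 6.50 in the VALI lungs, 7.19, 7.29 and 7.80 in the rhPBEF lungs and 9.03, 7.51 and 8.05 in the Control lungs. Control arrays were the highest group, VALI arrays the lowest, and the 2 did not overlap. The departure was 1.59 ± 0.46 (SE), 95% confidence interval 0.58 to 2.60, unadjusted p = 0.00522 in limma, for the brightest of 3 probe sets, which ran from -0.03 to 1.59. Adipoq, the fat hormone adiponectin, had 1.13 ± 0.55 (SE) and Cidec, a lipid droplet protein, 0.88 ± 0.35 (SE). Control replicate 1 was 0.65 above the Control mean of the list and the other Control arrays were at -0.37 and -0.28, and without it the median was 0.29 with 10 of 11 positive, Adipoq had 0.58 and Cidec 0.51. The count at an unadjusted p under 0.05 was 5 without Control replicate 2, 4 without Control replicate 3, VALI replicate 3 or rhPBEF replicate 2, and 1 without rhPBEF replicate 1 or rhPBEF & VALI replicate 2. Whether the lung of Control replicate 1 carried more fat was not tested.

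Endothelial markers had a median departure of 0.21, with 22 of 26 positive, against 58.2% of all genes. Above the product at an unadjusted p under 0.05 was 1 gene (1.46% of all genes were), a count of 4 without VALI replicate 3. VALI replicate 2 was the lowest array on the list mean, at -0.549 from Control, and without it the median was 0.13. With array weights the median was 0.12. That gene was Aplnr, the apelin receptor, at 0.83 ± 0.29 (SE). Tmem100, a target of BMP signalling in vessels, had 0.79 ± 0.75 (SE) and turned to -0.04 without VALI replicate 2, and Clec14a had 0.43 ± 0.46 (SE) and 0.06 without that array. Ephb4, an ephrin receptor of veins, was the single gene (0.0055%) past a limma adjusted p of 0.05 for VALI against Control, with levels of 9.13 ± 0.18 and 9.95 ± 0.05 (SD, n = 3 each), and its departure was 0.27 ± 0.13 (SE). Ciliated cell markers had a median of 0.28, with 3 of 19 above the product at an unadjusted p under 0.05 (1.46% of all genes were), Dnah9, Tppp3 and Rsph1, and 0 below. Centring or quantile normalisation left Tppp3 alone at that level. The count was 0 without rhPBEF & VALI replicate 3 or Control replicate 1 or 3, and 9 without rhPBEF & VALI replicate 1. Tekt4 and the dynein gene Dnaic2 had 0.47 ± 0.26 (SE) and 0.44 ± 0.35 (SE), whereas Foxj1, their transcription factor, had -0.43 ± 0.51 (SE), which became 0.10 without VALI replicate 2. A dimmer probe set of Dnaic2 lay at 0.02.

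Skeletal muscle markers had the third lowest list median, -0.99, with 0 of 14 at an unadjusted p under 0.05. Tnnc2, fast troponin C, stood at 5.58, 5.72 and 5.70 in the rhPBEF & VALI lungs, 5.34, 5.68 and 10.23 in the VALI lungs, 5.46, 11.38 and 5.53 in the rhPBEF lungs and 5.19, 5.61 and 5.57 in the Control lungs. The level was high on rhPBEF replicate 2 and VALI replicate 3 and between 5.19 and 5.72 on the rest, and the departure was -3.41 ± 2.14 (SE). Acta1 and Tnni2 had the same pattern, with departures of -2.90 ± 2.0 (SE) and -2.38 ± 1.42 (SE). Without those 2 arrays together the list median was 0.16. The same 2 arrays enter the neutrophil result, whose list median was -1.83 without them. Below the product at an unadjusted p under 0.05 were then 12 of 19, against 1.60% of all genes. In that fit 2 genes passed a limma adjusted p of 0.05, Csf3r and Cd300lb.

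Several lists lay close to the median of all genes. Interferon-stimulated genes had a median of -0.02, hypoxia-responsive genes 0.01 (-0.02 after centring), cell cycle genes 0.03, alveolar epithelial markers 0.03, lymphocyte markers -0.02 and macrophage markers 0.10 (-0.02 without VALI replicate 2), and 0 members of these 6 lists were at an unadjusted p under 0.05. Of 17 airway secretory markers 2 were below the product at that level (1.01% of all genes were), Slc26a4 and the mucin Muc4. Of 19 circadian clock genes 1 was, Bhlhe40. NAD metabolism, the enzymatic side of PBEF, had a median of 0.06 over 24 genes, 0 of them at that level. Nampt, the mouse gene of the instilled protein, stood at 10.88, 11.11 and 10.62 in the rhPBEF & VALI lungs, 10.64, 10.44 and 10.63 in the VALI lungs, 10.56, 10.66 and 10.59 in the rhPBEF lungs and 10.54, 10.60 and 10.36 in the Control lungs. The rhPBEF & VALI arrays lay above all Control arrays and overlapped both the VALI and the rhPBEF arrays. Its departure was 0.19 ± 0.17 (SE), 95% confidence interval -0.17 to 0.56, and its 3 probe sets ran from 0.18 to 0.27. Respiratory chain genes had a median departure of 0.07, with 23 of 23 positive, against 58.2% of all genes. Without VALI replicate 2 the median was 0.01, with 14 of 23 positive, and without Control replicate 1 it was 0.03, with 18 of 23. Collagens had a median of 0.19, with 16 of 16 positive. It was 0.08 with 12 of 16 positive without VALI replicate 1, 0.07 with 13 without VALI replicate 2, and 0.08 with 13 without rhPBEF replicate 3. In both lists 0 members were at an unadjusted p under 0.05.

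The genes with the smallest unadjusted p-values, ranked only among characterised symbols with a highest group mean above 6.42, include some outside the lists. Below the product these were Krtap17-1, Fgg, Lrrfip1, Cxcl2, Slfn4, S100a8, Socs3, Clec7a, S100a9 and Spx. Krtap17-1, a keratin-associated protein, stood at 7.11, 7.17 and 7.82 in the rhPBEF & VALI lungs, 9.80, 9.80 and 9.54 in the VALI lungs, 7.98, 8.00 and 7.39 in the rhPBEF lungs and 8.94, 8.50 and 8.07 in the Control lungs. All VALI arrays were above all other arrays, and both groups given rhPBEF lay below the Control arrays. Its departure, -1.64 ± 0.35 (SE), had the smallest p of all genes, each taken by its brightest probe set, unadjusted p = 0.000686 in limma. Lrrfip1, a nucleic-acid-binding regulator, stood at 11.34, 11.28 and 11.42 in the rhPBEF & VALI lungs, 11.35, 11.62 and 11.70 in the VALI lungs, 11.28, 11.29 and 11.12 in the rhPBEF lungs and 10.91, 10.81 and 10.94 in the Control lungs. It was highest after ventilation alone, with a departure of -0.55 ± 0.14 (SE) for the brightest of 3 probe sets, which ran from -0.55 to -0.03. Clec7a, the beta-glucan receptor dectin-1 of myeloid cells, had -0.94 ± 0.26 (SE) and Spx, a peptide hormone, -0.69 ± 0.20 (SE). The mean of Spx over 12 arrays was 6.30, under 6.42, so that it was ranked only through its highest group mean.

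Above the product they were Kcnmb1, Traf1, Slc7a7, Serpina9, Wdr66, Map1b, Ulk4, Ccdc166, Sumf2 and Exoc6b, with departures between 0.32 and 0.89. Kcnmb1, a subunit of the smooth muscle potassium channel BK, stood at 6.06, 6.21 and 6.25 in the rhPBEF & VALI lungs, 5.93, 6.18 and 6.15 in the VALI lungs, 6.11, 6.10 and 5.89 in the rhPBEF lungs and 6.59, 6.49 and 6.45 in the Control lungs. Control arrays were above all 9 treated arrays, and the 3 treated groups overlapped. The departure was 0.56 ± 0.13 (SE). For all 10, the Control mean was the highest of the 4 group means. Since only genes with a highest group mean above 6.42 were ranked, this trait is partly set by the choice. Kcnmb1, with a mean of 6.20 over 12 arrays, passed only through its Control arrays. Serpina9 had a mean of 6.17, also under 6.42, and was ranked on its highest group mean, that of Control. Slc7a7, a transporter of basic amino acids, had 0.54 ± 0.14 (SE) and Map1b, a microtubule protein, 0.63 ± 0.17 (SE). Wdr66, a cilia-associated protein, had 0.39 ± 0.10 (SE) for its brightest probe set and -0.02 for its most variable one. The second probe set of Kcnmb1, Exoc6b, Ulk4 and Sumf2 lay at 0.04, 0.01, 0.01 and 0.03. That of Ccdc166 lay at 0.09 and that of Slc7a7 at 0.26, and the other probe sets of Map1b lay at 0.18 and 0.05.

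Genes that responded to either treatment were chosen by the average effect, whose weights are orthogonal to the interaction, although both tests of a gene use the same residual spread. The 331 genes (1.82%) that rose with rhPBEF had a median departure of -0.10, with quartiles of -0.49 and 0.07, and 42 of them were at an unadjusted p under 0.05, against 2.47% of all genes. The 234 that fell (1.29%) had a median of 0.10, with 15 at that level. Thus the median departure had the sign opposite to the effect in both directions. Of the 565, 0 passed a limma adjusted p of 0.05. For ventilation the 17 genes that rose (0.0934%) had a median of -0.14 and the 23 that fell (0.126%) 0.12.

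The 10 largest average effects of rhPBEF were those of Cxcl3, Cxcl2, Cxcl5, Saa3, Ccl20, Slc26a4, Cxcl1, Il6, Cxcl10 and Saa1, and their departures are given above. Those of ventilation were Il6, Trim15, Smad6, Gpr65, Acaa1b, Klf2, Pmvk, Sgms2, Adgre5 and Rasgrp3. Trim15, a ubiquitin ligase, stood at 7.62, 7.79 and 7.60 in the rhPBEF & VALI lungs, 6.94, 7.70 and 7.05 in the VALI lungs, 6.29, 6.79 and 6.48 in the rhPBEF lungs and 5.69, 5.76 and 5.98 in the Control lungs. The rhPBEF & VALI arrays overlapped the VALI arrays, and all of these lay above the rhPBEF arrays, which lay above the Control arrays. Averaged over the other treatment it rose with ventilation and with rhPBEF (limma adjusted p = 0.00523 and 0.0418), and its departure was -0.26 ± 0.26 (SE), and -0.03 without VALI replicate 2. Smad6, an inhibitor of BMP signalling in endothelium, fell with ventilation by 1.24 on the log2 scale (limma adjusted p = 0.0189) and had a departure of -0.02 ± 0.33 (SE). Klf2, the flow-responsive endothelial factor, fell by 1.11 (limma adjusted p = 0.0243) and had 0.15 ± 0.33 (SE).

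Acaa1b, a peroxisomal thiolase of fatty acid breakdown, stood at 7.63, 7.59 and 7.96 in the rhPBEF & VALI lungs, 8.20, 7.55 and 7.63 in the VALI lungs, 9.20, 9.05 and 9.34 in the rhPBEF lungs and 8.69, 8.63 and 8.57 in the Control lungs. It was above Control after rhPBEF alone and below it in both ventilated groups. Against rhPBEF lungs it fell in rhPBEF & VALI lungs by 1.47 on the log2 scale, the single gene past the threshold in that comparison (0.0055% of genes, limma adjusted p = 0.0312). The departure was -0.63 ± 0.23 (SE), unadjusted p = 0.0184. Pmvk, an enzyme of cholesterol synthesis, had -0.70 ± 0.30 (SE) and Rasgrp3, a Ras activator, -0.55 ± 0.28 (SE). Gpr65, a proton-sensing receptor of leukocytes, had -0.32 ± 0.36 (SE), Sgms2, a sphingomyelin synthase, -0.43 ± 0.25 (SE), and Adgre5, the adhesion receptor CD97, 0.31 ± 0.29 (SE). A dimmer probe set of Sgms2 lay at -0.03.

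Additivity can also be read on unlogged values, where 0 means that the increments of the 2 treatments sum. On that scale, in multiples of the Control mean, the sign turned for 11 of the 70 named genes and stayed for 59. Il6 was 91.4-fold over Control after both treatments where the sum of the increments would give 53.0-fold, a difference of 38.4 ± 30.4 (SE) Control levels. The sign is thus negative against the product and positive against the sum. Cxcl2 had 162-fold against a sum of 181-fold, a difference of -18.1 ± 34.8 (SE), and Cxcl3 132-fold against 115-fold, 17.1 ± 58.8 (SE), both smaller than their SE. S100a9 was below both expectations, 11-fold against a sum of 20.3-fold, a difference of -9.25 ± 5.45 (SE). Ptx3 was above both, 13.5-fold against 3.53-fold, 9.97 ± 5.99 (SE). The SE was also large beside the differences of Il6, S100a9 and Ptx3. No test was run on this scale, so these signs are descriptive only. Of the 331 genes that rose with rhPBEF 174 were above the sum.

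**Figure D5:**
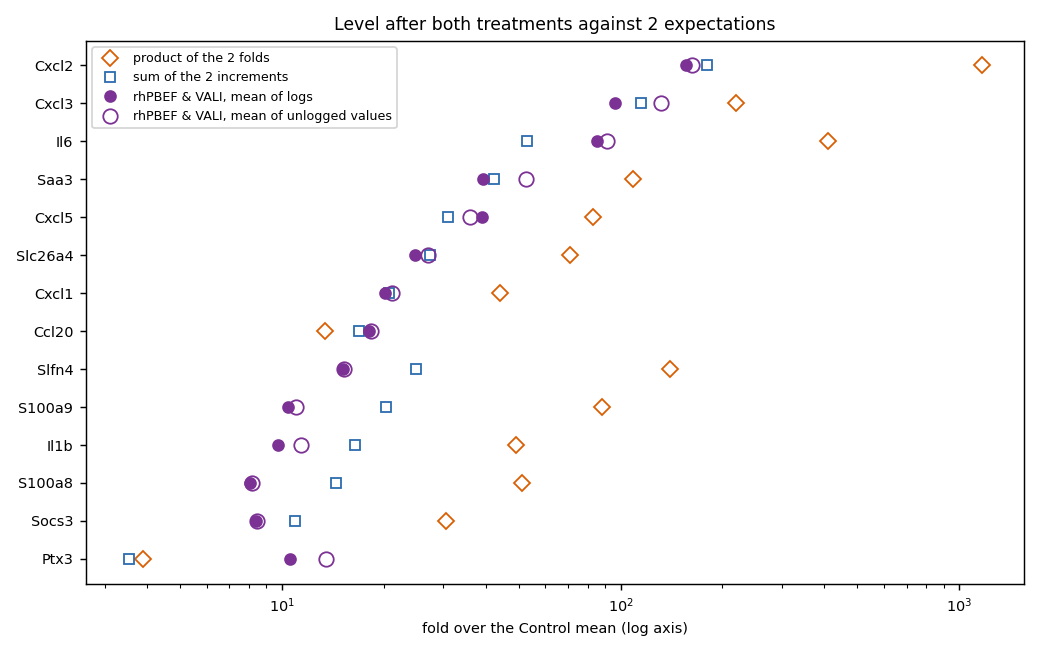
Fold over the Control mean (log axis) after both treatments for 14 genes, as the mean of log values (filled circle) and of unlogged values (open circle), beside the product of the separate folds (diamond) and the sum of the separate increments (square). Cxcl2, Il6 and Slfn4 lie well below the product, Il6 lies above the sum, and Ptx3 lies above both.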

How the data were processed

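Total RNA of lung was hybridised as biotinylated cRNA to 12 Affymetrix 1-colour arrays. The authors' deposited value table, which the log2 scale of its values (2.99 to 15.02, array medians 7.0 to 7.07) shows to be normalised already, was used without further normalisation. MAS5 and GCRMA are named, with no role or version, per the submitters' processing notes, and the normalisation itself is not given in the sources used here. Since no scanner values or detection calls were used, background at low levels could not be set per array, and precision is limited by having 3 arrays a group.

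Of the 45101 probe sets in the table, 64 that are Affymetrix controls were removed. The platform annotation gave 34945 of the other 45037 a single symbol, 932 several and 9160 none. Of each gene's probe sets the one with the highest mean over 12 arrays was kept, which gave 18193 genes with no filter on low values. A model of 4 group means was fitted to all genes with limma 3.58.1 (lmFit and eBayes) in R 4.3.3, with Benjamini-Hochberg adjustment over all 18193 genes and a threshold of 0.05. The fit was tested on simulated data. Within-group correlations were 0.983 to 0.997, and VALI replicate 2 lay at 70.7 on the second principal component, where the other arrays lay between -22.8 and 11.3.

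Genes were named by a fixed rule: the 10 smallest p-values in each direction, the 3 largest departures of each list described, the 10 largest average effects of each treatment that passed the threshold, and Nampt. The p-values and average effects were ranked only among characterised symbols with a highest group mean above 6.42. Names ending in Rik, Gm or LOC numbers and clone or accession names did not count as characterised. Other list members are given as examples. The members and lists were chosen with earlier results of these data known. Correlations of deviations from group means between arrays of the same number were -0.172 to 0.455, with a median of 0.06 and over 0.1 in 7 of 18 pairs. Between arrays of different number they were -0.451 to 0.234, with a median of -0.05 and over 0.1 in 10 of 36 pairs. These values do not settle whether the numbers mark pairs. The main fit did not take them as pairs, and a replicate block was fitted as an alternative. Alternatives were a filter at 6.42, a floor at 5.03, centring, quantile normalisation, other probe set rules, variance settings, array weights, unlogged values, a replicate block and each array left out. Sequences came from RefSeq tables (GRCm38.p6), and figures were drawn with matplotlib 3.10.9.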

Additional observations from a re-analysis of the deposited data

How the results depend on the processing

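No gene passed a limma adjusted p of 0.05 for the interaction under 10 planned settings that kept all 12 arrays, nor with probe sets in place of genes. With array weights, whose estimation stopped before its convergence tolerance, the smallest adjusted p was 0.241, and with the replicate block it was 0.997. Under that block some list counts at an unadjusted p under 0.05 moved. Above the product, ciliated cell markers went from 3 to 7 of 19 and antioxidant genes from 1 to 4 of 18. Below it, the Il6 receptor and STAT3 feedback list went from 3 to 6 of 17 and immediate early genes from 3 to 2 of 31. Of all genes 1.81% were above and 1.32% below the product at that level under the block. Leaving out 1 array gave 0 to 4 genes, 4 without VALI replicate 3, and leaving out the 2 arrays high in skeletal muscle genes gave 2. The genes above the product at an unadjusted p under 0.05 numbered 166 to 474 with 1 array left out, 167 with the filter on low values, 159 after centring, 172 after quantile normalisation and 819 with array weights. Those below numbered 108 to 354, 121 with the filter, 721 with array weights and 291 without the 2 muscle-high arrays. The average effect of rhPBEF passed for 226 to 1487 genes with 1 array left out and for 3639 with array weights. That of ventilation passed for 4 to 437 genes with 1 array left out, 71 with the filter, 67 after quantile normalisation, 16 with the floor, 2090 with array weights and 65 without the 2 muscle-high arrays.

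Of 1604 values of 70 named genes 1577 kept their direction and 27 turned. With 1 array left out Bag3 ran from -1.39 to 0.21, Foxj1 from -0.73 to 0.10, Hspa1l from -1.83 to 0.21, Klf2 from -0.028 to 0.44, Sele from -1.46 to 0.37, Smad6 from -0.27 to 0.21, Tmem100 from -0.044 to 1.26, Saa1 from -0.83 to 1.41 and Cxcl10 from -1.46 to 0.10. Array weights turned Foxj1 (0.11), Klf2 (-0.18), Sele (0.17), Smad6 (0.18), Trim15 (0.030) and the heat shock median (0.22). The most variable probe set turned Wdr66 (-0.023) and the acute phase median (-0.057), which the filter put at -0.016. Without the 2 muscle-high arrays Acta1 was 0.39, Ccl20 -0.073, Hspa1b -0.30, Tnnc2 0.13 and the skeletal muscle median 0.16. Unlogged, in Control levels, Bcl3 was 0.187, Ccl2 0.335, Cxcl1 0.413, Cxcl10 0.972, Cxcl3 17.1, Cxcl5 5.0, Gpr65 0.121, Il6 38.4, Saa3 10.3, Smad6 0.104 and Trim15 0.252. List medians with 1 array left out were -0.25 to 0.13 for acute phase proteins, -0.55 to 0.44 for heat shock, -0.32 to 0.14 for other chemokines, -0.43 to 0.017 for cytokines and -0.38 to 0.075 for NF-kB. Beyond the arrays themselves the causes were not tested.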

Other observations

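A block of squamous epithelial genes, which make the keratins and the cornified envelope of skin and upper airway, was high on 1 array. The 27 genes of a list written after their values were seen (among them Krt4, Krt13, Sprr3, Lor, Krtdap and Cnfn) averaged 2.86 above the Control mean on rhPBEF replicate 2, against -0.0144 to 0.267 on the 11 other arrays. Of the 27, 22 were highest on that array. Their median departure was -1.15, and -0.04 without that array. At -1 or less were 18 of the 27 with all arrays and 1 without it. The array is also 1 of the 2 with high skeletal muscle genes.

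Of the 8 departures at 1 or more, 3 belong to no gene list and were chosen after their values were seen. Cyp2e1, a cytochrome P450, had a departure of 1.30 ± 0.40 (SE), Car3, a carbonic anhydrase, 1.02 ± 0.51 (SE), and Thrsp, a regulator of fat synthesis, 1.02 ± 0.58 (SE). All 3 were highest on Control replicate 1, the array that was also high in adipocyte markers. Without it the departures were 0.94 for Cyp2e1, 0.61 for Car3 and 0.50 for Thrsp. The 3 did not pass a limma adjusted p of 0.05.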
